A study of Mus musculus with 105 samples.

Results

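T cell receptor variable (V) segments were followed as transcripts in mouse CD4+ T cells: 60 of the 102 gene rows of the count table whose symbols start with Trav (alpha chain) or Trbv (beta chain). The 60 were chosen by their deposited exon counts, which reached 100 when summed over the libraries of all 35 groups. They comprise 44 of 85 Trav rows and 16 of 17 Trbv rows, in a table of 22322 gene rows. Summed counts are therefore given as a description: they ran from 112 to 2680 for the Trav segments (median 396) and from 1139 to 11152 for the Trbv segments (median 3471). Just inside the limit lay Trav9d-1 (112), Trav13-4-dv7 (123) and Trav7-6 (124), and just outside it Trav10n (99), Trav7d-4 (98) and Trav13d-3 (97). Trbv21, with 82 counts, was the Trbv row left out.

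A T cell receptor of the common kind pairs an alpha with a beta chain. Each chain gene is assembled during development by joining 1 of many V segments to joining (J) segments, in the beta chain with a diversity segment between them, and splicing then attaches the constant region (Trac, Trbc1 or Trbc2). A V row therefore holds reads of many T cell clones that share that segment and differ at the joint. The joint is imprecise, and a joint that puts the constant region out of frame leaves an early stop codon. Such transcripts are known targets of nonsense-mediated decay, which needs translation to find the stop codon. The rows do not tell in-frame from out-of-frame transcripts.

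Cells came from the spleen and lymph nodes of 6 week old C57BL/6J females and were purified by negative selection for CD4+ T cells. They were left resting (14 groups) or activated with beads carrying CD3 and CD28 antibodies (21 groups). The antibodies bind the CD3 chains of the receptor complex and the costimulatory receptor CD28. Each group had 3 libraries, numbered 2, 3 and 4. In both states groups were untreated or had triptolide at 25 µM, a blocker of transcription initiation. Activated cells also had DRB at 65 µM, which blocks transcription elongation. Cycloheximide at 100 µg/ml, which stalls elongating ribosomes, or harringtonine at 2 µg/ml, which stops ribosomes at the start of translation, was given alone or with either transcription blocker for 1 or 3 h. Untreated cells and cells with a transcription blocker alone were sampled at 0, 1 and 3 h. All groups shared genotype, sex and age, and RNA was taken from equal numbers of cells per time point with ERCC spike-ins added. Nothing in the labels ties a library number to a mouse, so p-values measure the spread between libraries.

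The ends of the segments are shown because the joint forms there. They are germline sequence, and which of these bases a rearranged transcript keeps cannot be read from the rows. Shown are the last 45 coding bases of the 6 most abundant segments of each locus. Those of Trbv5 and Trbv4, a neighbouring pair that recurs in the results, are added. All are on the plus strand of mm10, from GENCODE vM21. Capitals mark in-frame cysteine codons, of which the conserved one opens the joint loop of the receptor, and in Trbv4 also the stop codon TAA.
Trbv13-2, chr6:41121788-41121832: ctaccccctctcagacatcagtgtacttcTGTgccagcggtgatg
Trbv1, chr6:40891841-40891885: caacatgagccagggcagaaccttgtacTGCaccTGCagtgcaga
Trbv3, chr6:41048784-41048828: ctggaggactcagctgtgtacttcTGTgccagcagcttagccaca
Trbv19, chr6:41179004-41179048: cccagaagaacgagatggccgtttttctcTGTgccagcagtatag
Trbv16, chr6:41152186-41152230: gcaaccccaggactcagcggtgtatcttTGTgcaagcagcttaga
Trbv15, chr6:41141614-41141658: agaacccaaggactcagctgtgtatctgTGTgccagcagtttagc
Trav14d-3-dv8, chr14:53079001-53079045: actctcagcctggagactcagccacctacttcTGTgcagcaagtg
Trav14-1, chr14:53554514-53554558: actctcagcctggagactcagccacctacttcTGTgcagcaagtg
Trav7-5, chr14:53531269-53531313: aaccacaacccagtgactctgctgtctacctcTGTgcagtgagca
Trav4-3, chr14:53599366-53599410: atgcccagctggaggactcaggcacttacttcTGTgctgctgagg
Trav12-3, chr14:53622201-53622245: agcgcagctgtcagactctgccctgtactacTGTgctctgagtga
Trav12-2, chr14:53616870-53616914: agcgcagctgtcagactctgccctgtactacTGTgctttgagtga
Trbv5, chr6:41062759-41062803: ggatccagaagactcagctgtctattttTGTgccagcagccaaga
Trbv4, chr6:41059842-41059886: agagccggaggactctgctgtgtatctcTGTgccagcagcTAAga

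Trav14d-3-dv8 and Trav14-1 ended in the same 45 bases, although they lie apart on chromosome 14. Segments with dv in the symbol can also join the delta chain. Trbv4 alone among the 60 carried an in-frame stop codon in its germline segment, at codon 114. That is its last whole codon, and whether Trbv4 transcripts keep it was not tested. The germline coding sequence ran 1 base past its last whole codon in 37 segments, 2 bases in 20 and 0 in 3. The Trav segments lay between bases 52580665 and 53876752 of chromosome 14 and the Trbv segments between 40891229 and 41271881 of chromosome 6.

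How many rows of each locus could collect reads differed. For each row, the share of its 50-base windows that occur in no other annotated transcript was computed. Its median was 55.8% for the 44 Trav segments, 100.0% for the 16 Trbv segments and 0.0% for the rows below the limit. 26 rows were at 0 in every library, and 25 of these had no unique window. 24 of the 26 carry d or n in the symbol, the mark of duplicated copies of a block of Trav segments in this strain. 12 of the 60 segments kept also carry it. A Trav row is thus uncertain where near copies could split or discard its reads, which the Trbv rows are less exposed to. Trbv4 (27.9% unique windows) and Trbv5 (22.6%) are overlapped on the same strand by the long noncoding gene 5830405F06Rik (chr6:41055883-41063102), which has no row of its own in the table. Reads of that gene within these segments cannot be told apart from theirs, so Trbv4 and Trbv5 are uncertain rows.

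**Figure D1:**
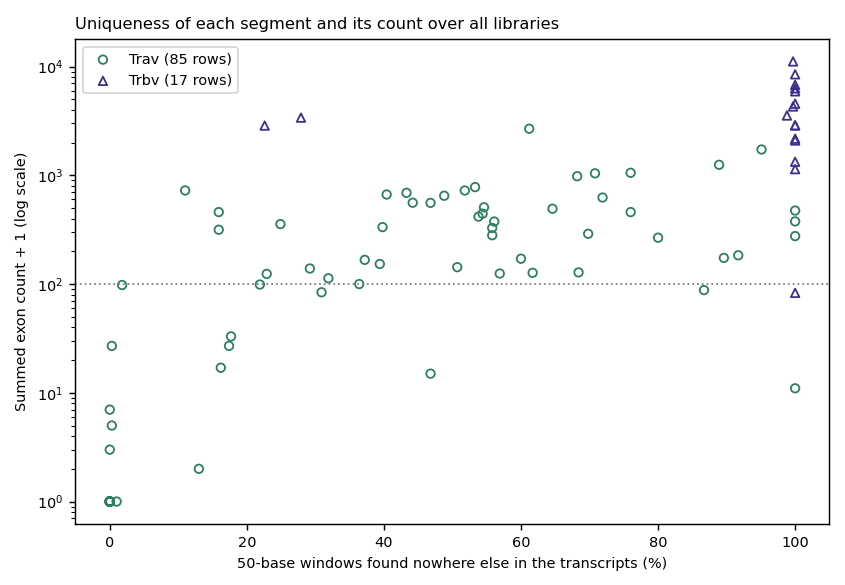
Summed exon count plus 1 over all libraries (log axis) against the percentage of 50-base windows found in no other transcript, 1 point per V row, with the limit of 100 counts as a dotted line. Rows with 0 counts gather at 0% unique windows, and 14 of 16 Trbv segments lie at 95% or more.

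The libraries differed in ways that touch these rows. Exon counts per library had a median of 2135827 and ran from 6300 (resting 1 h triptolide, replicate 3) through 141028 (activated 0 h untreated, replicate 3) and 551975 to 6479221. A count of 0 allows up to 1.44 counts per 1e6 exon counts (CPM) in the median library and 240.5 CPM in the shallowest. Between 50.5% and 91.5% of reads per library were not uniquely aligned, per the deposited statistics. In activated cells replicate 2 had the lowest ratio of Trbv to Trav counts in 21 of 21 groups (0.723 to 2.30, median 1.29, against a median of 2.43 in the other replicates) and the highest summed Trav level in 17 of 21. In resting cells it had the lowest ratio in 9 of 14 groups. Activated 3 h triptolide replicate 3 also stood apart, in its mitochondrial share. Leaving it out left every count of called segments below within 1.5 times, other than that of the test of the difference in triptolide response. Most of the comparisons do not contain this library. The CD4+ label was checked by 6 markers, which summed to 802 to 2788 CPM over all libraries, while the CD8 pair reached at most 19.7 CPM, myeloid markers 30.8 CPM and natural killer markers 44.5 CPM. B cell markers were present: their summed level at 0 h was 93.3 to 720 CPM in resting and 12.4 to 147 CPM in activated cells, with the light chain constant gene Igkc among them (Ighm was not analysed here). Trdc, a marker of gamma-delta T cells, lay between 0 and 57.9 CPM. Igkc was highest in replicate 2 in 14 of 14 resting groups.

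Among beta segments, Trbv13-2 was the most abundant. Per kilobase of exon it stood at 223, 163 and 177 CPM in the 3 untreated resting 0 h libraries, a mean of 188 ± 31.5 (SD, n = 3). Next came Trbv1 at 105.4 ± 4.92, Trbv16 at 93.0 ± 22.7, Trbv15 at 86.7 ± 31.2, Trbv19 at 79.0 ± 19.4 and Trbv3 at 76.2 ± 6.22 CPM per kilobase. From Trbv1 down to Trbv3, neighbours in this order differed by less than the larger of their SDs. At the lower end were Trbv17 at 22.6 ± 6.20 and Trbv14 at 17.1 ± 13.7. The 2 leading alpha segments by this measure, Trav14-1 (23.9 ± 9.44) and Trav14d-3-dv8 (22.4 ± 7.57), were near that lower end. Of all Trbv counts in resting 0 h cells, Trbv13-2 took 15.1% ± 0.22 (SD, n = 3), and in activated 0 h cells 17.1% ± 4.52. The alpha segments were low throughout: in untreated resting 0 h cells 41 of 44 lay below 5 CPM against 0 of 16 Trbv, and a count test has little reach there. On counts simulated for the resting 3 h triptolide comparison (12298 genes), 10 of 50 genes below 5 CPM changed 4-fold were recovered and 0 of 50 changed 2-fold. From 5 CPM up, 45 of 50 and 25 of 50 were. The simulation changed few of the 12298 genes, whereas 22.1% were called higher and 28.0% lower in the real comparison. An adjusted p is stricter where few genes change, so these shares can understate the reach of the real comparison.

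Across the 35 groups, mean summed levels of the Trbv segments ran from 114 CPM (activated 3 h harringtonine) to 447 CPM (resting 1 h untreated). All 6 most abundant Trbv segments had their lowest group mean in activated 3 h harringtonine. For Trbv13-2 the mean was 14.8 CPM there and at most 70.5 CPM in resting 1 h untreated cells. Trbv1 went from 12.6 to 54.0 CPM (activated 1 h DRB), and Trbv16 from 9.52 to 55.1 CPM (resting 1 h triptolide, whose shallowest library is included). Trbv3 went up to 45.8 CPM in resting 3 h untreated cells, and Trbv19 and Trbv15 to 44.7 and 32.1 CPM in resting 0 h untreated cells. Summed Trav levels ran from 36.8 CPM (resting 3 h triptolide) to 154 CPM (activated 1 h untreated). Of the alpha segments, Trav14d-3-dv8 had its highest group mean, 22.8 CPM, in activated 3 h triptolide. Its libraries there were at 22.2, 36.9 and 9.25 CPM, the 36.9 in replicate 3, which stood apart. Trav12-3 had its lowest group mean, 0.240 CPM, in resting 3 h triptolide. Trav14-1 ran from 2.91 (resting 3 h triptolide with cycloheximide) to 11.97 CPM (activated 1 h untreated) and Trav7-5 from 1.74 (resting 1 h harringtonine) to 8.27 CPM (activated 1 h triptolide). Trav4-3 ran from 1.53 (resting 3 h triptolide with harringtonine) to 8.95 CPM (activated 0 h untreated, shallow replicate 3 included). Trav12-2 ran from 1.34 (resting 1 h triptolide with cycloheximide) to 6.73 CPM (activated 0 h DRB). In bulk RNA, fewer cells of a type and less RNA per cell cannot be told apart.

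**Figure D2:**
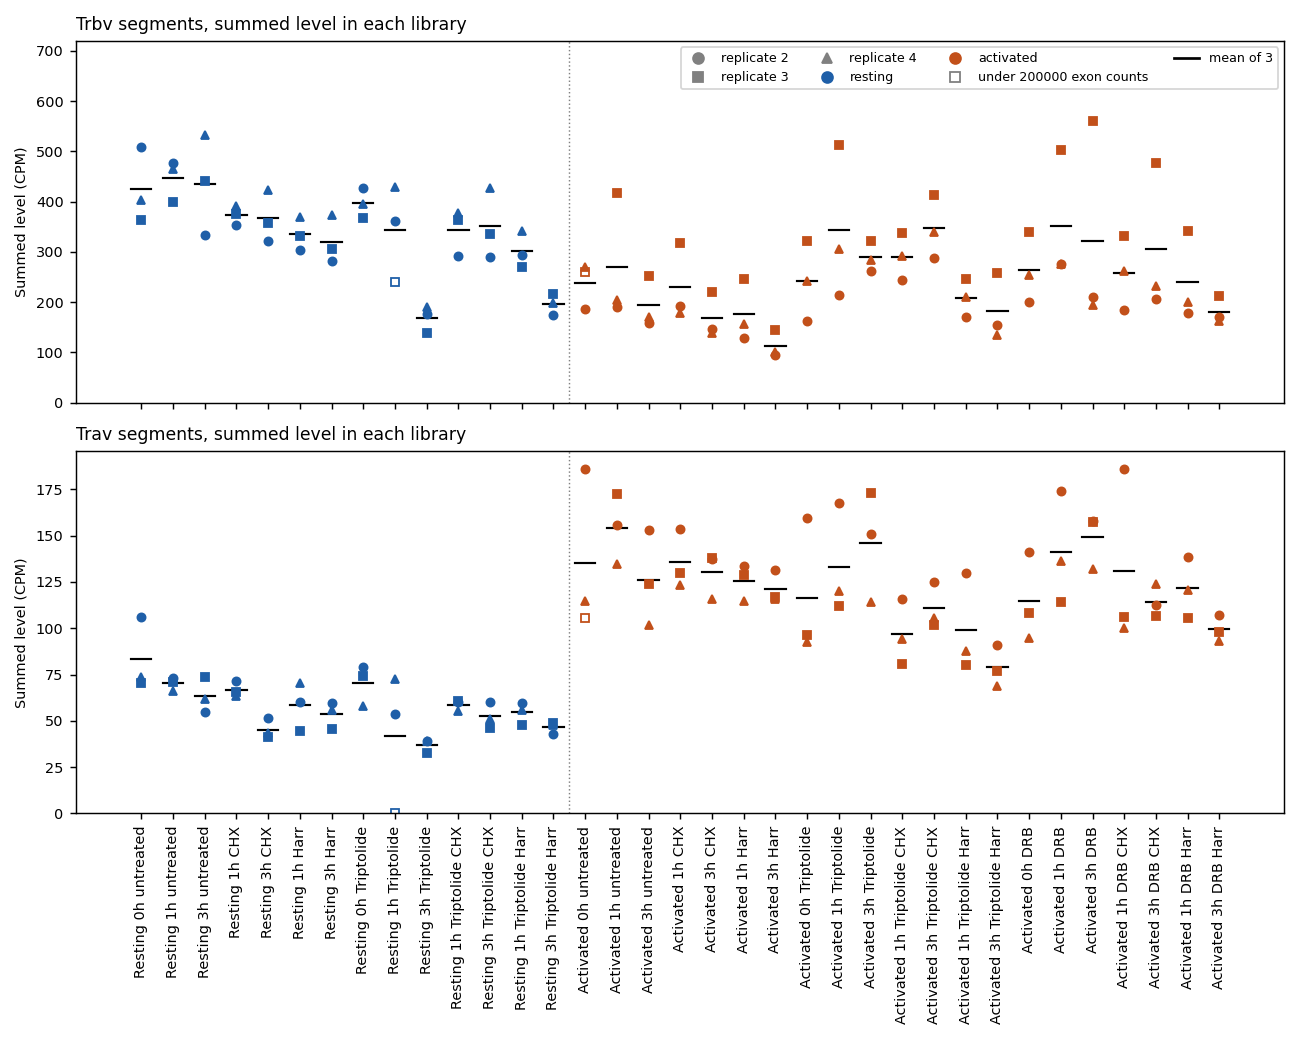
Summed level of the Trav and of the Trbv segments (CPM) in each library, by group, with a dotted line between the states. Lines are means of 3 and open symbols mark the 2 shallowest libraries. Among untreated groups the resting means are higher for Trbv and lower for Trav than the activated ones, and resting 3 h triptolide is the lowest resting group for both.

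Activated cells held fewer beta and more alpha segment transcripts than resting cells at 0 h. The summed Trbv level was 187, 261 and 269 CPM in the 3 activated libraries against 508, 363 and 403 CPM in the resting ones, so the groups did not overlap (239 ± 45.1 and 425 ± 74.6, SD, n = 3). The summed Trav level was 135 ± 44.2 against 83.5 ± 19.7 CPM, with overlapping groups. All changes below are log2 differences from edgeR's quasi-likelihood test over 12298 genes, with Benjamini-Hochberg adjusted p, and are relative to the typical mRNA. Of the 60 segments, 9 (15.0%) rose, all Trav, and 8 (13.3%) fell, all Trbv. Over all genes 12.7% were called higher and 9.43% lower. Medians were 1.21 for the Trav segments, -1.01 for the Trbv segments and 0.03 for all genes. All 16 Trbv changes were below 0, from -1.58 to -0.47, and 39 of 44 Trav changes were above it. Scaled on the spike-ins the medians were 1.37, -0.82 and 0.19, in the same directions, with 5 segments higher and 1 lower, where 9.12% of all genes were called higher and 2.95% lower on that scale.

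Segments are named below by a rule: called, at 10 CPM or more in a group, and with groups that do not overlap, up to 6 per comparison by size of change. Others named for a short list of calls were chosen after their values were seen. Trbv4 stood at 10.1, 12.4 and 7.59 CPM in activated and 22.9, 24.4 and 22.3 CPM in resting 0 h libraries. It fell by 1.31 ± 0.36 (SE, adjusted p = 0.00378). Trbv19 stood at 20.7, 12.4 and 28.0 against 57.2, 36.6 and 40.3 CPM, and fell by 0.95 ± 0.31 (adjusted p = 0.0184). Trbv16 stood at 11.9, 24.8 and 23.9 against 44.7, 27.1 and 39.2 CPM, and fell by 1.06 ± 0.39 (adjusted p = 0.0371). In all of these each activated library was below each resting one. Trbv15 (-1.20, adjusted p = 0.0198), Trbv12-2 (-1.19, adjusted p = 0.0282) and Trbv20 (-1.13, adjusted p = 0.0308) also fell without overlap. The most abundant segments did not pass: Trbv13-2 changed by -0.80 ± 0.39 (adjusted p = 0.134) and Trbv1 by -0.51 ± 0.39 (adjusted p = 0.378). Among alpha segments Trav4-3 rose by 1.62 ± 0.52, from 2.61 ± 1.41 to 8.95 ± 3.31 CPM (adjusted p = 0.0170). Trav12-3 rose by 1.54 ± 0.42, from 2.07 ± 0.671 to 6.04 ± 1.88 CPM (adjusted p = 0.00366). Both were without overlap. These counts rest on few libraries: 1 segment was called without replicate 2, 16 without replicate 3 and 4 without replicate 4. The activated replicate 3 is the shallow library, with an effective size of 161000 counts, and Trbv15 had 0 counts in it. Its CPM values therefore rest on very few counts per segment, for instance 6.21 CPM for Trbv12-2. The statements of no overlap and the SDs of single segments at 0 h include these values and are uncertain for that reason.

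At 3 h without inhibitors the same contrast gave 11 segments (18.3%) higher, all Trav, and 15 (25.0%) lower, all Trbv. Over all genes 24.0% were called higher and 24.0% lower. Medians were 1.08 for Trav, -1.23 for Trbv and -0.01 for all genes. The 3 h libraries are separate from those at 0 h but carry the same replicate numbers. In activated cells replicate 2 had the lowest ratio of Trbv to Trav counts in 21 of 21 groups. The times are therefore not shown to be independent. On the spike-in scale the medians were 1.77, -0.56 and 0.61, with 19 segments higher and 4 lower, where 36.3% of all genes were higher and 8.81% lower. Without replicate 4, 8 segments were called, 6 Trav higher and 2 Trbv lower. Trbv13-2 stood at 14.8, 35.1 and 26.9 CPM in activated and 55.5, 69.1 and 83.3 CPM in resting libraries. It fell by 1.48 ± 0.37 (SE, adjusted p = 0.000482), with each activated library below each resting one. Trbv5 fell by 1.70 ± 0.38, Trbv15 by 1.70 ± 0.38, Trbv12-2 by 1.39 ± 0.38, Trbv20 by 1.32 ± 0.36 and Trbv3 by 1.32 ± 0.33, each without overlap and with an adjusted p of at most 0.00168. Trav12-3 rose again, by 1.78 ± 0.41, from 1.60 ± 0.847 to 6.08 ± 1.94 CPM (adjusted p = 0.000156), and Trav12-2 by 1.38 ± 0.51 (adjusted p = 0.0193).

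Of the other receptor genes, 9 of 13 on a list of the constant regions, CD3 chains and coreceptor were tested, and at 0 h 0 rose and 4 fell on activation. These were the beta constant gene Trbc1 (-0.86 ± 0.30, adjusted p = 0.0299), the CD3 chains Cd3g (-0.79 ± 0.25, adjusted p = 0.0151) and Cd3d (-0.74 ± 0.25, adjusted p = 0.0216), and the coreceptor Cd4 (-0.47 ± 0.17, adjusted p = 0.0360). Trbc2, the more abundant beta constant gene, changed by -0.73 ± 0.35 (adjusted p = 0.134). At 3 h 5 of 9 fell and 0 rose. Trac was not analysed here. The ratio of Trbv to Trbc counts stayed between 0.566 and 0.832 over the 35 group means. Of 18 tested factors of nonsense-mediated decay 5 rose at 0 h and 0 fell, among them the helicase Upf1 (0.82 ± 0.19, adjusted p = 0.000757) and its partner Upf3a (1.04 ± 0.30, adjusted p = 0.00594), while the kinase Smg1, the most abundant, was at -0.09 ± 0.22. The B cell markers, lower in activated cells, move with this contrast and their part in it was not tested.

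In resting cells 3 h of triptolide lowered beta segment transcripts below the typical mRNA. Their summed level was 397 ± 29.1 CPM at 0 h and 168 ± 26.7 CPM (138 to 190) at 3 h. At 1 h it was 362 and 429 CPM in the 2 libraries other than the shallowest. Of the 60 segments 13 (21.7%) fell, 12 of 16 Trbv and the alpha segment Trav12-3, and 0 rose. Over all genes 28.0% were called lower and 22.1% higher, so the share of the 60 called lower was below that of all genes. Medians were -1.39 for Trbv, -0.98 for Trav and -0.07 for all genes. Scaled on the spike-ins, which also carry the loss of total mRNA, the medians were -3.05, -2.39 and -1.70, and all 16 Trbv segments were called lower, as were 68.3% of all genes. Per 1000 spike-in counts the summed Trbv level went from 7.70 ± 1.51 to 1.05 ± 0.275 (SD, n = 3).

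Trbv19 stood at 17.9, 10.9 and 14.4 CPM at 3 h against 49.4, 44.0 and 34.4 CPM at 0 h. It fell by 1.60 ± 0.34 (SE, adjusted p = 4.37e-05), with no overlap. Trbv5 stood at 3.26, 2.71 and 2.16 against 23.5, 21.02 and 17.5 CPM, and fell by 2.97 ± 0.54 (adjusted p = 3.22e-06). Trbv4, its neighbour under the same noncoding gene, fell by 1.59 ± 0.41 (adjusted p = 0.000644). Trbv12-1 (-1.84, adjusted p = 0.00923), Trbv29 (-1.60, adjusted p = 0.00192) and Trbv20 (-1.56, adjusted p = 0.00600) fell too, each at 11 CPM or less in every 3 h library. Trbv13-2 fell by 1.39 ± 0.40, from 61.6 ± 3.79 to 23.8 ± 3.21 CPM (adjusted p = 0.00260). Trbv1, at 27.2 ± 7.14 against 43.3 ± 6.66 CPM, was not called (-0.71 ± 0.39, adjusted p = 0.129). Nor was Trbv3, at 22.1 ± 3.39 against 32.6 ± 4.47 CPM (-0.53 ± 0.35, adjusted p = 0.207). Trbv17 (-0.73) and Trbv14 (-0.65) were not called either. Whether segments differ from each other in this change was not tested. Trav12-3 had 1 count at 3 h against 22 at 0 h, a ratio of 7.96 with an exact 95% counting interval from 1.29 to 329. Without replicate 2 the count of called segments was 8, and 11 without replicate 3 or 4.

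Of the receptor list, the beta constant genes fell with the segments: Trbc2 by 1.39 ± 0.35 (adjusted p = 0.000613) and Trbc1 by 0.72 ± 0.29 (adjusted p = 0.0329). Cd247, the zeta chain and the most abundant of the list, rose by 0.49 ± 0.20 (adjusted p = 0.0366), and Ptcra, the surrogate alpha chain of thymocytes, rose by 3.37 ± 0.75 (adjusted p = 9.76e-05). The other 5 of 9 did not pass. Of the 18 decay factors 4 rose and 5 fell, among the latter Eif4a3 of the exon junction complex (-2.56 ± 0.29, adjusted p = 1.16e-11). Zfas1, the tested member of 12 snoRNA host genes on the list, rose by 0.89 ± 0.34 (adjusted p = 0.0237). Of the recombination genes only Dntt, the enzyme that adds bases at the joint, reached the count limit, and its change of -1.04 was not called. B cell markers moved with this comparison, at 269 to 1421 CPM in 3 h triptolide against 108 to 779 CPM at 0 h, and their part in it was not tested.

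**Figure D3:**
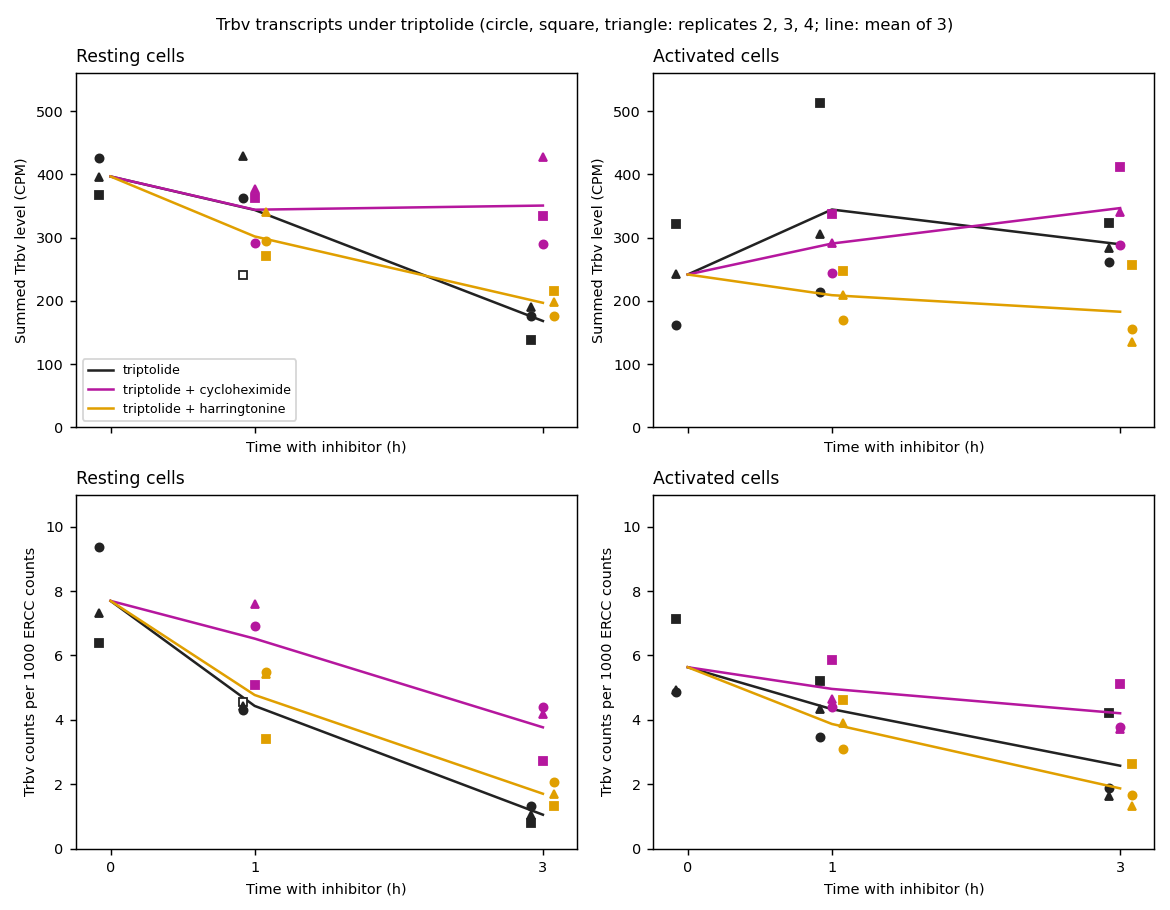
Summed Trbv level under triptolide alone and with cycloheximide or harringtonine, by hours with inhibitor, as CPM (top) and per 1000 spike-in counts (bottom). Each point is a library and lines join means of 3. In resting cells triptolide alone ends at 168 CPM, and with cycloheximide at 351 CPM.

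When cycloheximide was given with triptolide for 3 h in resting cells, beta segment transcripts were higher than with triptolide alone. At 1 h the Trbv median was -0.18 relative to triptolide alone, with 11 of 16 changes below 0. The summed Trbv level at 3 h was 290 to 427 CPM (351 ± 70.1), above all 3 libraries with triptolide alone and overlapping the 368 to 426 CPM of triptolide at 0 h. Of the 60 segments 9 (15.0%) were higher than with triptolide alone, 8 of 16 Trbv and Trav12-3, and 0 lower. Over all genes 18% were called higher and 10.7% lower, so in this fit without a replicate block the share of the 60 called higher was below that of all genes. Medians were 1.05 for Trbv, 0.54 for Trav and 0.00 for all genes. Spike-in scaling gave 1.84, 1.22 and 0.82, and called all 16 Trbv segments higher, as it did 39.9% of all genes. Per 1000 spike-in counts the summed level was 3.77 with cycloheximide and 1.05 without, against 7.70 at 0 h.

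Trbv13-2 stood at 49.9, 57.8 and 76.7 CPM with both drugs against 26.0, 25.3 and 20.2 CPM with triptolide alone. It was higher by 1.38 ± 0.41 (SE, adjusted p = 0.00641), with no overlap. Trbv19 stood at 20.9, 35.2 and 34.3 against 17.9, 10.9 and 14.4 CPM, and was higher by 1.101 ± 0.35 (adjusted p = 0.0115). Trbv15 stood at 19.96, 20.1 and 33.1 against 11.4, 11.8 and 10.1 CPM, and was higher by 1.13 ± 0.44 (adjusted p = 0.0422). Every library with both drugs was above every library with triptolide alone for each of these. Trbv12-1 (1.90, adjusted p = 0.0156), Trbv29 (1.26, adjusted p = 0.0340) and Trbv13-3 (1.25, adjusted p = 0.0263) were also higher. Trbv5, below 10 CPM on average, was higher by 1.71 ± 0.61 (adjusted p = 0.0259). Trav12-3 had 14 counts against 1, a ratio of 6.97 with an exact 95% counting interval from 1.06 to 295. This comparison and the decay comparison share the libraries with triptolide alone. Fewer were called when libraries were left out: 2 without replicate 2, 4 without replicate 3 and 2 without replicate 4. With replicate number as a block within each state, 14 were called, and the share of all genes called with that block is not given. Of the receptor list, Trbc1 (1.11 ± 0.29, adjusted p = 0.00245) and Trbc2 (1.28 ± 0.35, adjusted p = 0.00348) were higher and the other 7 did not pass. Of the 18 decay factors 7 were higher and 1 lower. B cell markers, at 120 to 794 CPM with both drugs, moved with this comparison too, and their part was not tested.

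Harringtonine given with triptolide in resting cells raised 0 beta segments above triptolide alone. The summed Trbv level was 176 to 216 CPM (197 ± 20.4), overlapping the 138 to 190 CPM of triptolide alone. Of all 60 segments 0 were higher and 1 lower, where 13.9% of all genes were called higher and 5.11% lower. Medians were 0.22 for Trbv, 0.20 for Trav and -0.02 for all genes. Trbv13-2 stood at 25.6, 23.5 and 34.6 against 26.0, 25.3 and 20.2 CPM (0.24 ± 0.43, adjusted p = 0.749). Trav6n-5 was the segment called lower, with 1 count against 8, a ratio of 13.8 with an exact 95% counting interval from 1.85 to 611. With a replicate block 3 segments were called, and 1, 0 and 0 without replicates 2, 3 and 4. Spike-in scaling gave 5 calls, 4 Trbv and 1 Trav, all higher, where 22.8% of all genes were called higher. Whether cycloheximide and harringtonine differ from each other here was not tested.

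In activated cells no segment was called lower than the typical mRNA after 3 h of a transcription blocker. The summed Trbv level was 242 ± 79.5 CPM with triptolide at 0 h and 289 ± 30.5 CPM at 3 h, and 3 segments rose and 0 fell, where 18% of all genes were called higher and 23.6% lower. Medians were 0.13 for Trbv and 0.23 for Trav. On the spike-in scale both loci lay below 0, at -1.43 and -1.40, as did all genes at -1.61, and 30 segments were called lower, as were 69.4% of all genes. Trbv3 stood at 33.5, 36.9 and 40.1 CPM at 3 h against 12.3, 24.0 and 16.5 CPM at 0 h, without overlap. It rose by 1.05 ± 0.35 (SE, adjusted p = 0.0125) relative to typical mRNA but was at -0.51 on the spike-in scale. Trbv17 rose by 1.24 ± 0.52 (adjusted p = 0.0481), with overlapping groups. Trav15-2-dv6-2 had 6 counts against 0, which is 2.95-fold higher with a floor of 3 counts over the 0 h group. Counting error of the 6 counts is not included in that value. Without replicate 2, 0 segments were called, and 2 without replicate 3 or 4. DESeq2 called 1. In the receptor list 6 of 9 rose relative to typical mRNA, led by Cd4 (0.80 ± 0.17, adjusted p = 5.42e-05) and Cd3e (1.24 ± 0.30, adjusted p = 0.000519), while Trbc1 and Trbc2 did not pass.

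With DRB the summed Trbv level was 200, 339 and 254 CPM at 0 h and 211, 561 and 195 CPM at 3 h, and 1 segment was called, Trav14-3, which rose by 1.28 ± 0.50 from 3.24 ± 1.26 to 7.85 ± 2.64 CPM (adjusted p = 0.0386). Among all genes 15.0% were called higher and 19.2% lower, and the segment medians were 0.26 for Trbv and 0.31 for Trav. On the spike-in scale the medians were -1.27 and -1.16 against -1.49 for all genes, with 27 segments and 69.5% of all genes called lower. 0 segments were called after leaving out any replicate number, and 3 with a replicate block within each state. Replicate 3 held the highest summed Trbv level at both times.

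Adding a translation blocker to a transcription blocker in activated cells moved few segments. With cycloheximide and triptolide the summed Trbv level was 347 ± 62.6 CPM, and edgeR called 0 segments (0 by DESeq2, 4 at an unadjusted p under 0.05), where 15.4% of all genes were called higher and 6.93% lower. The medians were 0.23 for Trbv and -0.32 for Trav. A replicate block within each state gave 4 calls, 1 with a block shared by both states, and spike-in scaling gave 7, all higher, where 29.4% of all genes were called higher. With cycloheximide and DRB edgeR called 0 segments (0 by DESeq2, 5 at an unadjusted p under 0.05), where 9.34% of all genes were higher and 4.61% lower. For triptolide and DRB alike these shares of all genes are at adjusted p under 0.05. Shares of all genes at an unadjusted p are not given. Spike-in scaling gave 3 calls, all higher, where 25.1% of all genes were called higher.

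Harringtonine was also added to a transcription blocker in activated cells. Without a replicate block, 3.33% of the 60 segments were called lower with triptolide and 6.67% with DRB, below or near the share of all genes. Added to triptolide it left 183 ± 65.5 CPM of summed Trbv level against 289 ± 30.5 CPM. Of the segments 2 fell, Trbv4 and Trbv5, the pair under the noncoding gene, and 0 rose, where 6.14% of all genes were called lower and 14.1% higher. Trbv4 stood at 5.28, 6.15 and 4.24 CPM against 15.7, 40.3 and 11.6 CPM, without overlap, and fell by 1.92 ± 0.41 (SE, adjusted p = 0.000181). Trbv5 had 3 counts against 33, a ratio of 12.9 with an exact 95% counting interval from 4.05 to 65.8. The count was 1 without replicate 2 and 7 without replicate 3. Spike-in scaling called 2 Trbv segments lower, where 0.976% of all genes were. Added to DRB, harringtonine gave 4 segments lower and 1 higher, where 5.21% of all genes were lower and 10.2% higher. Trbv4 stood at 11.1, 3.17 and 5.29 against 11.5, 27.6 and 13.3 CPM and fell by 1.22 ± 0.39 (adjusted p = 0.0192), and Trbv5 fell by 2.05 ± 0.65 (adjusted p = 0.0205), both without overlap. Trbv1 (-1.25 ± 0.41, adjusted p = 0.0262) and Trbv29 (-1.21 ± 0.42, adjusted p = 0.0348) fell with overlapping groups. Trav6-1 had 10 counts against 0, which is 2.48-fold higher with the floor of 3 counts, without the counting error of the 10. Leaving out replicates 2, 3 and 4 gave 3, 2 and 0 calls, and a block within each state gave 9. The share of all genes called with that block is not given. On the spike-in scale 1 was called, higher, where 21.4% of all genes were.

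With translation blockers alone, against untreated cells at 3 h, the fit without a replicate block called between 1.67% and 5.00% of the 60 segments lower. That was below the share of all genes in each of the 4 comparisons. Shares of all genes called with a block are not given. In activated cells harringtonine left the summed Trbv level at 95.1, 145 and 102 CPM against 158, 252 and 172 CPM, groups that did not overlap. 2 segments fell, Trbv19 and Trbv1, and 0 rose, where 10.5% of all genes were lower and 16% higher. Trbv19 stood at 5.99, 12.6 and 9.76 against 20.8, 32.7 and 17.5 CPM, without overlap, and fell by 1.29 ± 0.32 (SE, adjusted p = 0.000983). Trbv1 fell by 1.05 ± 0.39 (adjusted p = 0.0365), with overlapping groups. The Trbv median was -0.77 and the Trav median 0.01. On the spike-in scale they were -0.50 and 0.29 against 0.33 for all genes, and 1 segment was called, lower, where 3.02% of all genes were. The block gave 3 calls when shared and 7 within each state, and 1 segment was called without replicate 4. Cycloheximide alone lowered Trbv19 by 0.80 ± 0.31, from 23.7 ± 7.996 to 13.5 ± 4.29 CPM (adjusted p = 0.0445), with overlapping groups, the 1 call among 60, where 10.6% of all genes were lower and 15.2% higher. That count was 2 without replicate 2, 0 without replicate 4 and 2 with a block within each state. With spike-in scaling its 1 call was a Trav segment, higher, where 21.7% of all genes were.

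In resting cells cycloheximide alone lowered 3 segments and raised 0, where 8.77% of all genes were lower and 14.4% higher. Trav14d-3-dv8 stood at 3.93, 6.33 and 3.46 against 7.57, 10.5 and 9.45 CPM, without overlap, and fell by 1.07 ± 0.39 (adjusted p = 0.0374). Trav14-2 had 4 counts against 13 and Trav5-4 had 4 against 12. The summed Trbv level was 322, 358 and 423 CPM against 334, 441 and 533 CPM in untreated cells. Harringtonine alone lowered Trbv20 by 0.92 ± 0.34, from 16.02 ± 7.20 to 8.58 ± 1.42 CPM (adjusted p = 0.0433), with overlapping groups, the 1 call, where 6.73% of all genes were lower and 10.7% higher. The direction of both depends on the scale: with spike-ins the Trbv medians were 0.68 and 0.49 against 0.99 and 0.98 for all genes, and the 8 and 11 segments called were all higher, where 53.8% and 52.7% of all genes were. Cycloheximide gave 6 calls and harringtonine 8 with a block within each state, and harringtonine 5 with a shared block. No share of all genes with a block stands beside these counts. Leaving out replicates 2, 3 and 4 gave 1, 0 and 1 calls for cycloheximide, and 1, 0 and 0 for harringtonine.

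**Figure D4:**
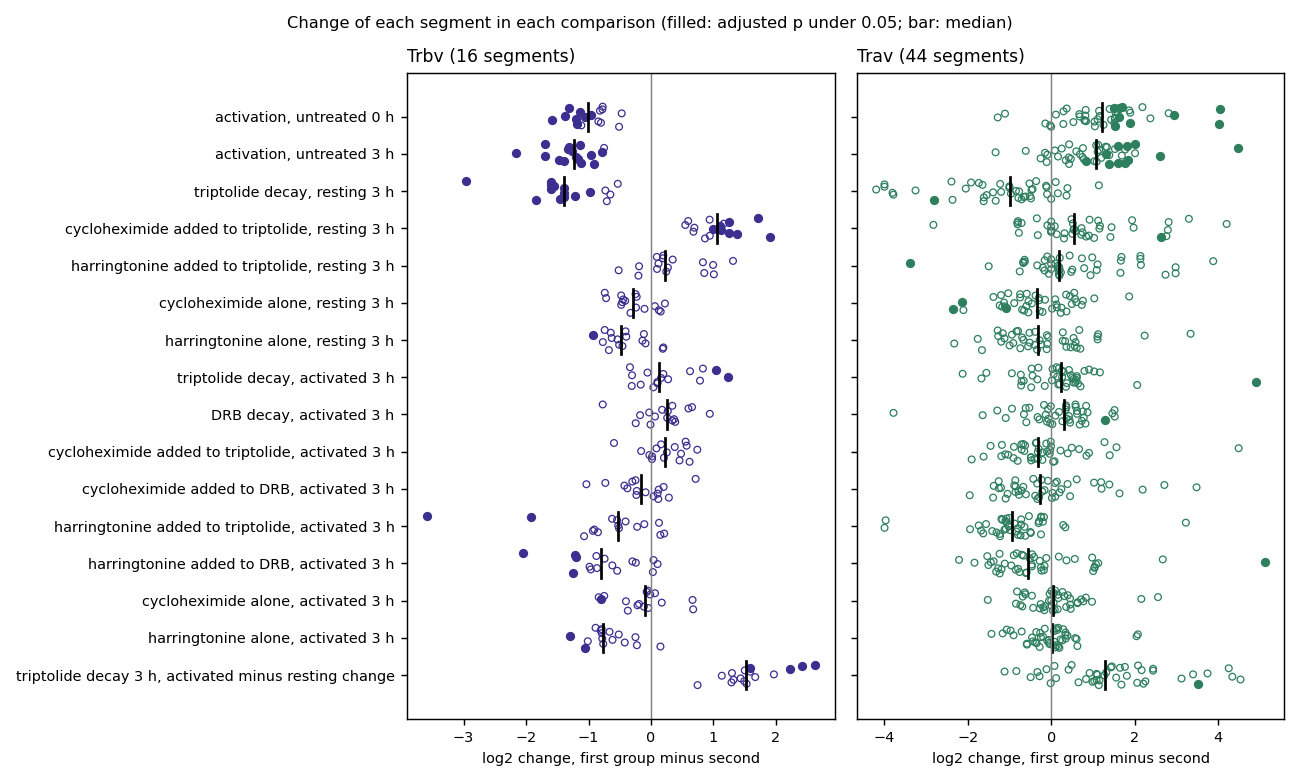
log2 change of each segment (point) in each comparison, Trav and Trbv apart, filled where adjusted p was under 0.05, with a bar at the median. The Trbv medians lie at -1.39 under triptolide in resting cells, 1.05 when cycloheximide was added there, and 0.13 under triptolide in activated cells.

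The triptolide responses of the 2 states were compared directly, as the activated minus the resting change over 3 h. It was called above 0 for 5 segments (Trbv5, Trbv4, Trbv29, Trbv3 and Trav12-3) and below 0 for 0 segments, where 3.29% of all genes were called higher and 1.61% lower. Medians were 1.52 for Trbv, 1.30 for Trav and 0.02 for all genes, and 1.57, 1.00 and 0.06 on the spike-in scale. For Trbv4 the change was 0.83 ± 0.36 in activated and -1.59 ± 0.41 in resting cells, a difference of 2.42 ± 0.54 (SE, adjusted p = 0.00261). The activated change was not called by itself (adjusted p = 0.0544). Its groups overlapped, with 15.7, 40.3 and 11.6 CPM at 3 h against 5.90, 14.4 and 13.3 CPM at 0 h. The 40.3 CPM was in replicate 3, the library that stood apart. For Trbv5 the changes were -0.34 ± 0.45 and -2.97 ± 0.54 (difference 2.63 ± 0.74, adjusted p = 0.0204). Trbv29 differed by 2.23 ± 0.65 (adjusted p = 0.0268) and Trbv3 by 1.58 ± 0.50 (adjusted p = 0.0455). Trav12-3 differed by 3.52, a fitted value that rests on 1 count in the resting 3 h group. Of the receptor list Trbc2 (1.55 ± 0.49, adjusted p = 0.0469) and Cd3g (1.30 ± 0.34, adjusted p = 0.0108) differed likewise. Without replicates 2, 3 and 4 the counts were 1, 4 and 2, and it was 3 without activated 3 h triptolide replicate 3.

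For cycloheximide alone the effect in activated minus that in resting cells was called for 1 segment, Trav5-4, at 2.85 ± 0.98 (adjusted p = 0.0368), where 6.55% of all genes were higher and 7.28% lower. It had 20 and 10 counts in activated and 4 and 12 in resting cells, with and without the drug. Leaving out replicate 2 gave 2 calls, and leaving out replicate 3 or 4 gave 0. For harringtonine alone edgeR called 0 (0 by DESeq2, 4 at an unadjusted p under 0.05), where 4.02% of all genes were higher and 3.75% lower. These shares of all genes are at adjusted p under 0.05, and the share at an unadjusted p is not given.

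**Figure D5:**
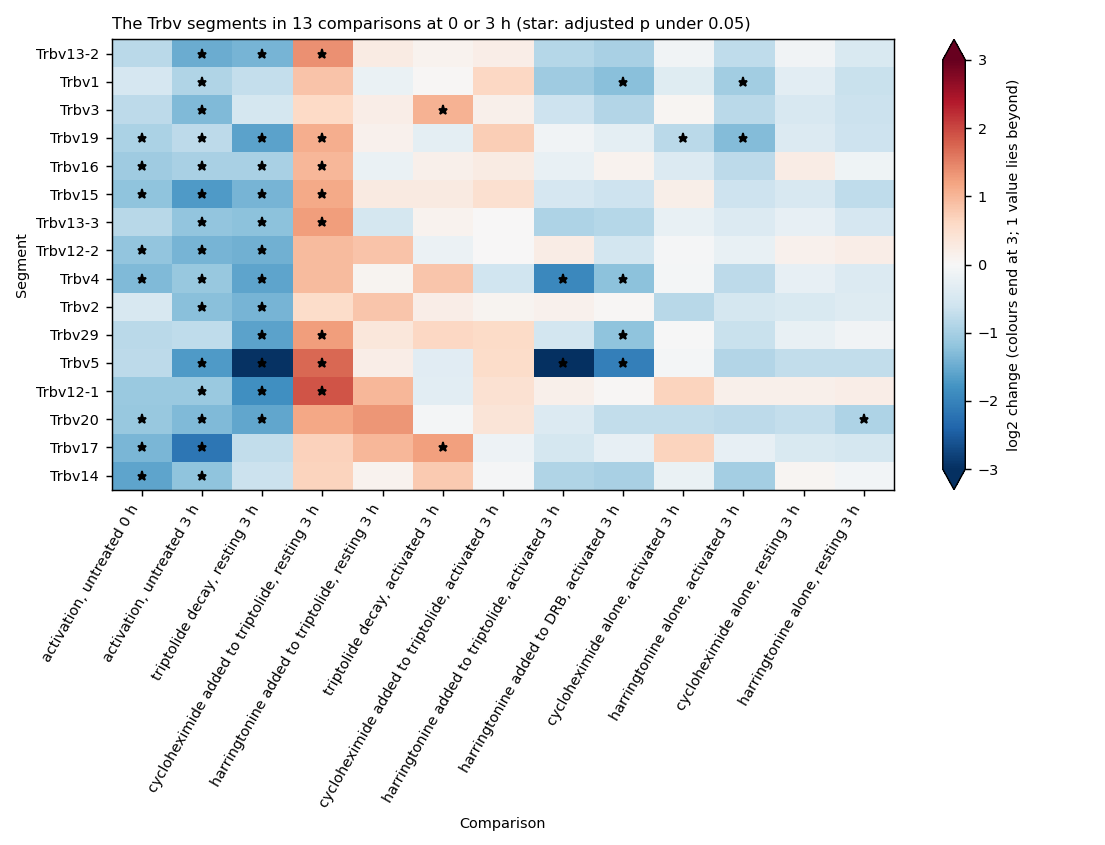
log2 change of each of the 16 Trbv segments (rows) in 13 comparisons (columns), starred where adjusted p was under 0.05. The 2 activation columns and resting triptolide are negative in every row, and resting cycloheximide with triptolide is positive in every row.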

How the data were processed

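RNA sequencing counts of 105 libraries were used. The submitters' processing notes name TopHat2 (2.0.13), Bowtie (1.1.1.0), HTSeq and the build mm10. What each tool did, and whether counting used strand, is not given in the sources used here. The deposited table holds raw counts per gene for exons, coding sequence and introns, and for the ERCC spike-ins. Exon counts were used, with coding-sequence counts as an alternative. Gene IDs were matched to symbols in 22124 of 22322 rows. Genes with a summed exon count of 100 or more (12298) were tested with edgeR 4.0.16 (R 4.3.3, robust quasi-likelihood test, TMM factors, 35 group means), Benjamini-Hochberg adjusted, at 0.05, so all 60 segments were tested. CPM values were computed here with TMM-scaled library sizes. DESeq2 1.42.0 was an alternative. The procedure was tested on simulated data.

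Samples were grouped by cell state, treatment and time. The segments and gene lists were chosen with earlier results of these data known. Always described were the 6 Trav and 6 Trbv segments with the highest mean CPM over all libraries; in each comparison also up to 6 called segments with the largest change, at 10 CPM or more in a group and with groups that do not overlap. Of the other lists, counts per direction are given, with up to 2 genes by smallest p and 2 by abundance.

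The replicate numbers carry no stated link to a mouse. Deviations from group means of same-numbered libraries correlated above 0.1 in every pair in 11 of 13 comparisons within a state (over all 13 from 0.038 to 0.714), and not in activation at 0 h (0.005 to 0.142). Values with a replicate block therefore stand beside results of those 11 where they moved a count of calls by over 1.5 times. Those of triptolide and of harringtonine added to it in activated cells, and of differences between states, are given with the other settings. Pairs of libraries of a group had chi-square statistics of at least 1.20 per degree of freedom (median 9.18), so none agreed within counting noise. Intervals cover counting error only, and floors cover that of the count of 0 alone. Other settings tried were RLE factors, library size alone, spike-in scaling, filterByExpr, no filter, fits on the compared libraries alone, and leaving out each replicate number, the 2 libraries of lowest depth, or the third replicate of activated cells with triptolide for 3 h, which was added after seeing the data.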

Additional observations from a re-analysis of the deposited data

Results flagged for a closer look

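Tests of the difference between cell states picked out 6 segments. For triptolide over 3 h, the activated minus the resting change was 2.63 for Trbv5, 2.42 for Trbv4, 2.23 for Trbv29, 1.58 for Trbv3 and 3.52 for Trav12-3 on the log2 scale, by edgeR's quasi-likelihood test with adjusted p under 0.05. Trbv4 and Trbv5 share their place with a long noncoding gene, and Trav12-3 had 1 count in the resting 3 h group. In activated cells the triptolide change of Trbv4 was not called by itself, and its groups overlapped. For cycloheximide alone the difference was 2.85 for Trav5-4, on 20 and 10 counts in activated and 4 and 12 counts in resting cells.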

How the results depend on the processing

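Counts of called segments out of 60 depended on the scale. With spike-ins they were 6 for activation at 0 h (17 before), 30 for triptolide and 27 for DRB in activated cells, 44 for triptolide in resting cells, 22 for cycloheximide added there, 5 for harringtonine added there, 7 and 3 for cycloheximide added to triptolide and to DRB in activated cells, 1 for harringtonine added to DRB, 8 and 11 for cycloheximide and harringtonine alone in resting cells, 1 for harringtonine alone in activated cells, and 0 and 2 for the differences between states in the response to cycloheximide and to harringtonine. Trbv3 turned from 1.05 to -0.51 in activated triptolide. With library size alone the counts were 1 for triptolide and 1 for cycloheximide added to it in activated cells, 22 for triptolide, 14 for added cycloheximide and 3 for added harringtonine in resting cells, and 3 for harringtonine added to DRB. RLE factors gave 0 for DRB, 1 for cycloheximide added to triptolide in activated cells and 0 for harringtonine alone in resting cells. DESeq2 gave 1 for triptolide and 0 for DRB in activated cells, 0 for harringtonine added to triptolide, 1 for cycloheximide alone and 0 for harringtonine alone in resting cells, and 0 for the difference in the cycloheximide effect.

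Without a filter the counts were 10 for activation at 0 h, 0 for DRB, 4 for harringtonine added to triptolide in activated cells, 5 and 4 for harringtonine alone in activated and resting cells, and 0 for the difference in the cycloheximide effect. filterByExpr gave 0 for harringtonine added to triptolide in resting cells, and 4 and 3 for harringtonine alone in activated and resting cells. Coding-sequence counts gave 5 for cycloheximide added to triptolide in resting cells, 1 and 3 for harringtonine alone in activated and resting cells, and 3 for the difference in the triptolide response, which was also 3 without activated 3 h triptolide replicate 3 (an alternative added after seeing the data). Without that library the counts were 13 for triptolide in resting cells and 26 for activation at 3 h, as with it. Neither of these comparisons contains it, so little change could occur. Fits on the compared libraries alone gave 0 for cycloheximide alone in activated cells and 0 for the difference in its effect.

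With a replicate block within each state the counts were 3 for DRB, 4 for cycloheximide added to triptolide, 6 and 9 for harringtonine added to triptolide and to DRB, 2 for cycloheximide and 7 for harringtonine alone in activated cells. In resting cells they were 14 for added cycloheximide, 3 for added harringtonine, 6 for cycloheximide and 8 for harringtonine alone. Differences between states gave 2 for cycloheximide and 14 for triptolide. A block shared by both states gave 1 for cycloheximide and 4 for harringtonine added to triptolide in activated cells, 3 for harringtonine added to triptolide and 5 for harringtonine alone in resting cells, 2 for the difference in the cycloheximide effect and 10 for that in the triptolide response. The block moved no other count by over 1.5 times. Shares of all genes called with a block are not given.

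Leaving out each replicate number gave 1 to 16 calls for activation at 0 h and 8 to 24 at 3 h. In activated cells the ranges were 0 to 2 for triptolide, 0 to 0 for DRB, 1 to 7 and 0 to 3 for harringtonine added to triptolide and to DRB, 0 to 2 for cycloheximide and 1 to 3 for harringtonine alone. In resting cells they were 8 to 11 for triptolide, 2 to 4 for added cycloheximide, 0 to 1 for added harringtonine, 0 to 1 for cycloheximide and 0 to 1 for harringtonine alone. Differences between states gave 0 to 2 for cycloheximide and 1 to 4 for triptolide. Of 480 repeats for 32 named segment results, 416 held their direction and threshold, 63 held direction only and 1 reversed. Where a setting left fewer libraries or other scaling, the cause of a moved count was not tested further. Most Trav segments lie below 5 CPM, which limits what could be called.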

Other observations

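J segments, which are joined downstream of the V segments, and the introns of the V segments had levels of their own. Rows of 51 Traj segments summed to 64.1 CPM (mean of 3, shallow replicate 3 included) in untreated activated cells at 0 h, the highest of 21 activated groups. The lowest was 14.2 CPM, in activated 3 h triptolide with harringtonine. In resting cells the range was 5.60 CPM (1 h triptolide, shallowest library included) to 29.0 CPM (0 h untreated). Rows of 13 Trbj segments ran from 13.6 CPM (3 h triptolide) to 28.8 CPM (0 h untreated, shallow replicate 3 included) in activated cells. In resting cells they ran from 10.6 CPM (3 h triptolide) to 41.3 CPM (1 h untreated). Intron counts of the 16 Trbv segments had their highest mean of the 21 activated groups, 9.23 CPM, in 0 h untreated cells (shallow replicate 3 included). Their lowest, 0.257 CPM, was in 3 h triptolide. These are extremes over groups, not a time course.

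Immunoglobulin V rows were highest in the resting group where Trbv was lowest. The 81 Igkv rows summed to 397 CPM and the 94 Ighv rows to 299 CPM in resting 3 h triptolide, the highest of 14 resting groups for each, and to 57.9 and 48.7 CPM in resting 3 h cycloheximide, the lowest. Igkc itself averaged 830.4 CPM in resting 3 h triptolide. Trdc, the delta constant gene, stayed between 16.4 and 29.6 CPM over the resting groups.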
